A study of Drosophila melanogaster with 2 samples.

Results

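The 6 adherens junction genes cno, shg, arm, alpha-Cat, p120ctn and baz were examined for ADD1 binding in whole Drosophila melanogaster embryos. They are 6 of the 18277 genes annotated on the chromosome arms, and were chosen by their symbols with the binding results already known. Binding was read from chromatin immunoprecipitation and sequencing (ChIP-seq) with an anti-GFP antibody, in a line whose own ADD1 gene carries an intronic eGFP exon and so makes an ADD1-GFP fusion (strain ADD1-MiMIC-GFP). The antibody is anti-GFP in the description of the samples, whereas their antibody field names CG8290, which RefSeq lists as a synonym of ADD1. Embryos of both sexes were pooled and had been collected at 0 to 16 h, so the signal is an average over stages and over all cell types, and strong binding in few cells cannot be told apart from weak binding in many. The single group held 2 biological replicates, numbered 1 and 3, and the control chromatin was not analysed here. A call is a region listed by the authors' peak caller, with a signal value that the authors computed. All 76 calls whose highest point (summit) lay in one of the genes or within 1000 bp of it were taken, out of 30000 calls made on the pooled replicates. A kept call is one in the authors' list thresholded by the irreproducible discovery rate (IDR), which is identical to the 4402 strongest pooled calls. Of all pooled calls 14.7% were kept, and at the 6 genes 10 of 76 were kept (13.2%), a share close to that background. Rank 1 is the strongest call of a list.

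Adherens junctions hold epithelial cells together and tie their membranes to the actin cytoskeleton. The transmembrane cadherin binds its counterpart on the neighbouring cell, catenins bind its tail, and further proteins couple the complex to actin and set its position along the lateral membrane. In the fly embryo these junctions form as the blastoderm becomes an epithelium, and they carry the forces of gastrulation and dorsal closure. ADD1 is known as a heterochromatin-associated protein with an ADD domain related to that of mammalian ATRX.

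The 6 genes differed widely in their strongest call. cno, which codes for Canoe, the fly Afadin that links the junction to actin, held the call ranked 17 in the pool. baz, which codes for Bazooka, the fly Par3 scaffold that positions the junctions, held the call ranked 205. p120ctn, the gene of the p120 catenin that binds the cadherin tail near the membrane, had its strongest call at rank 1721, and alpha-Cat, the gene of the catenin that connects the complex to actin, at rank 1882. The strongest call at shg, the E-cadherin gene, ranked 5104 and that at arm, the beta-catenin gene, ranked 15415, so the cadherin and the beta-catenin gene had no kept call. All 6 genes had at least 1 call within 1000 bp, as did 83.3% of the 2438 protein-coding genes at least as long as the shortest of them (7544 bp). A kept call within 1000 bp was present at 4 of the 6 genes, against 51.8% of those 2438 genes, and against 31.4% of all 13968 protein-coding genes. Among those 2438 genes, 7 had a stronger call than cno and 104 a stronger one than baz. For p120ctn the number was 659 (27.0%), for alpha-Cat 721 (29.6%), for shg 1377 (56.5%) and for arm 1895 (77.7%). The ranks were part of the choice of the genes, so they are given as a description without a test.

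**Figure D1:**
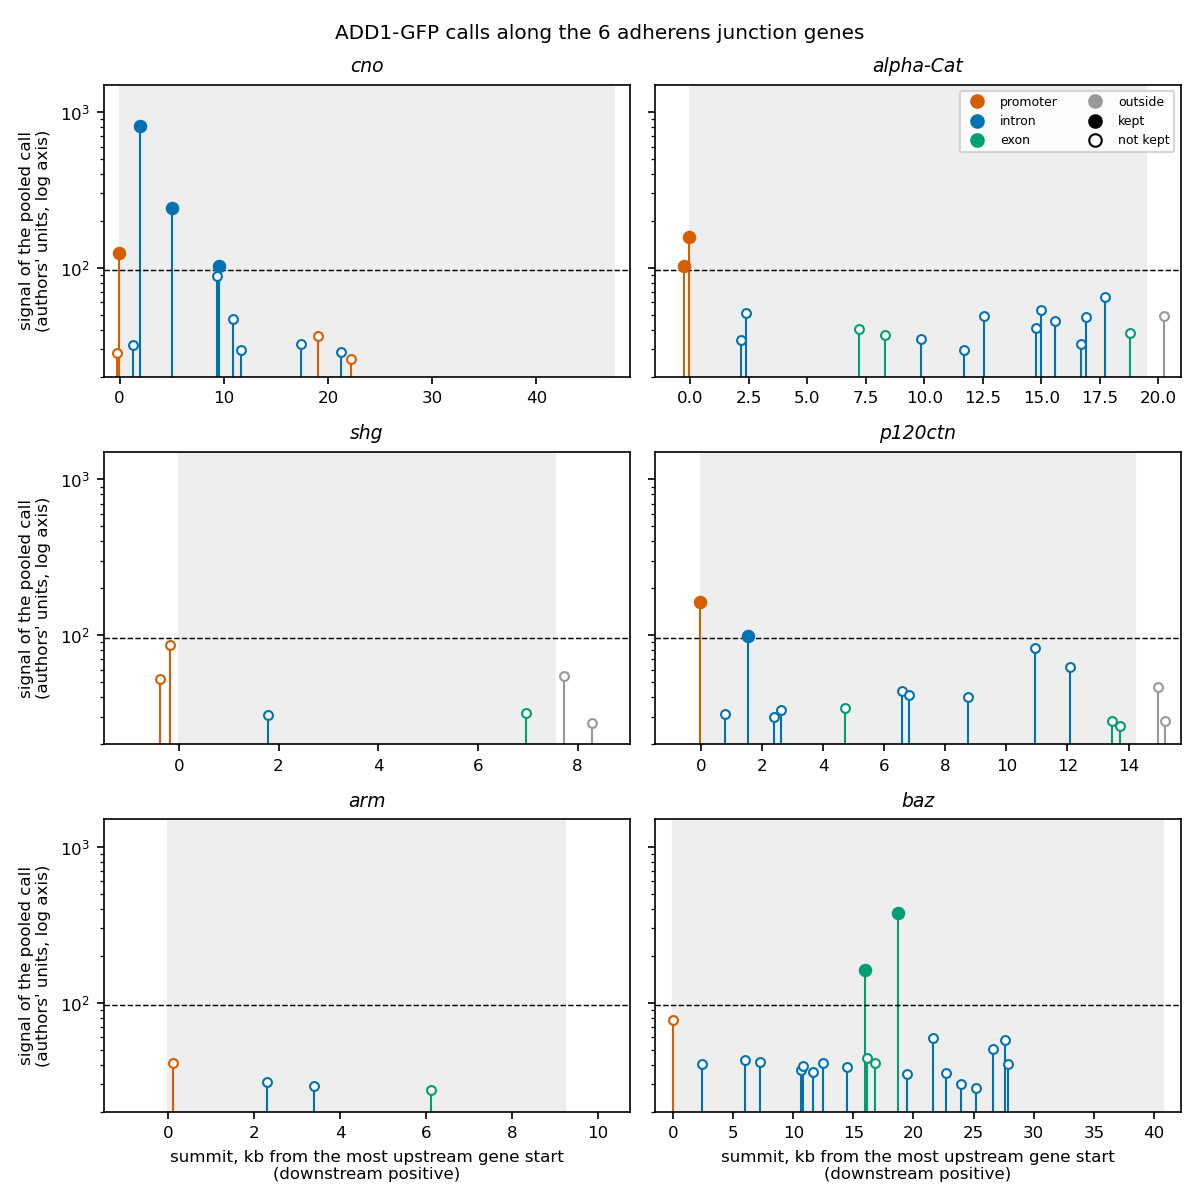
Signal of each pooled ADD1-GFP call (authors' units, log axis) against the distance of its summit from the most upstream start of the gene in kb, downstream positive, with the gene span in grey and the lowest kept signal (96.4) as a dashed line. Colours give the place of the summit (promoter, intron, exon or outside genes). Filled points are the 10 kept calls, which sit in the upstream part of cno, at the start of alpha-Cat, at the start and in the first intron of p120ctn and in the middle of baz, while shg and arm have open points alone.

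The sequences under the strongest calls outside exons, and of the stretches upstream of the starts, show what DNA the calls lie on. They were read from the Release 6 assembly (dm6), on the coding strand of each gene, and are printed in lower case. Capitals mark matches, on either strand, to 6 motifs, namely TATCGATA and TCGATA (the DREF element and its core, which overlap), GGTCACAC (the M1BP element), GAGAGAG (the GAGA repeat), the heptamer GGTATTT with no factor named here and CAGGTAG (the Zelda site). The first 2 are windows of 100 bp on either side of the summits ranked 17 and 687, both in the first intron of cno, at chr3R:5215427-5215627 and chr3R:5212380-5212580 on the minus strand. The third is the whole gap between the cno start and the neighbouring gene Prosbeta2R2, at chr3R:5217457-5217750 on the minus strand. The others are the 300 bp upstream of alpha-Cat, at chr3L:23338101-23338400 on the minus strand, which hold the summits of both its kept calls, and the 300 bp upstream of baz, at chrX:17159706-17160005 on the plus strand.
cno summit of rank 17: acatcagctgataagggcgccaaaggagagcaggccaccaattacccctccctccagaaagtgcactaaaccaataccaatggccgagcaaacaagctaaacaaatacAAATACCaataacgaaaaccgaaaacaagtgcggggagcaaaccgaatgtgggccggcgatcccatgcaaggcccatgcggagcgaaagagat
cno summit of rank 687: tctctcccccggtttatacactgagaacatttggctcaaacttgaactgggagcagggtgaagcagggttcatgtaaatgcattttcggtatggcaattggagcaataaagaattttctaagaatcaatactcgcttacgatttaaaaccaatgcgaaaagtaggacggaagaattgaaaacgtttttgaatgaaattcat
cno upstream: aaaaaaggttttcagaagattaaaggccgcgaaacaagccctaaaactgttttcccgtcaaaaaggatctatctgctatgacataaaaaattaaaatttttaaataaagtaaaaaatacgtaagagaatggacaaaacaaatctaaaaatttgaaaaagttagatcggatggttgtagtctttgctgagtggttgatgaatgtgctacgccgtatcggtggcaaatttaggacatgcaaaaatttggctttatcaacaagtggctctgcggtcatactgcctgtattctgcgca
alpha-Cat upstream: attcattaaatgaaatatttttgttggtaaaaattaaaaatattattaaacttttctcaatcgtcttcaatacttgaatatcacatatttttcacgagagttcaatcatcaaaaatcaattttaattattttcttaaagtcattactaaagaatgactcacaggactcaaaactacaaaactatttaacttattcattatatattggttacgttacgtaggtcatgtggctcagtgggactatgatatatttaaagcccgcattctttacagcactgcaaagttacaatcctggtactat
baz upstream: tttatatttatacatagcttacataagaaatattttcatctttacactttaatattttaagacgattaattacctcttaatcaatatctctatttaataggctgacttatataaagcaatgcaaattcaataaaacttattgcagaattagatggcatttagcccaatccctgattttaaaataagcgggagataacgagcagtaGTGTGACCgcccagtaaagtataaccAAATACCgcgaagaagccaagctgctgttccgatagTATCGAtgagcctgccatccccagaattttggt

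The strongest cno window holds 1 match, to GGTATTT, which 5.09% of all pooled call windows and 4.44% of all kept intron windows of the same length also hold. The window of rank 687 and the upstream stretches of cno and alpha-Cat hold none of the 6 motifs. The windows around their start summits reach past the start, and hold GGTCACAC at cno and TCGATA at alpha-Cat. The stretch upstream of baz, where the call was not kept, holds 3 matches, to GGTCACAC, GGTATTT and TCGATA. These letters occur in 4.41%, 9.31% and 24.7% of the 19276 stretches of 300 bp upstream of protein-coding starts. Base composition differed between the loci. The window at the strongest cno summit has a GC content of 50.7%, and that of the upstream kept call of alpha-Cat has 20.9%. Over the 10 kept windows the mean was 37.6% ± 9.02 (SD across windows), against 37.2% ± 7.31 over all 4402 kept peaks. Of the 10 kept windows, 0 held the full TATCGATA, against 7.16% of all kept peaks, and 3 held its core TCGATA, against 20.8%.

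cno carried the strongest and the most numerous kept calls, 4 of its 13. The gene spans 47453 bp on 3R (5170004 to 5217456, minus strand) and has 8 annotated transcripts from 2 starts. The call ranked 17 (5215377 to 5215678) lay in the first intron, 1929 bp downstream of the start, with a pooled signal of 807. Its signal was 398 in replicate 1 (rank 16) and 406 in replicate 3 (rank 20), and its summits in the replicates lay 2 and 1 bp from the pooled one. The call was thus among the strongest of both replicates, although the pool is made from the same reads. With 302 bp it was narrower than the 424 bp that 86.4% of kept peaks share.

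The next kept call of cno lay 4976 bp from the start in the same intron, with a signal of 241 (rank 687). It had 110.3 in replicate 1 (rank 726) and 133 in replicate 3 (rank 693). The kept call at the cno start had its summit 42 bp upstream, at a signal of 124 (rank 2933), and its rank differed between replicates, at 1758 in replicate 1 (signal 76.8) and 5069 in replicate 3 (signal 48.1). The last kept call, 9534 bp downstream, lay near the threshold at a signal of 102 (rank 4063), with 47.6 in replicate 1 (rank 4402) and 48.3 in replicate 3 (rank 5024). Both of these calls ranked past 4402 in replicate 3.

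The first intron of cno (13503 bp) held 7 of the 13 calls and 3 of the 4 kept ones. Of pooled intron calls as a whole, 9.27% were kept. All 11 calls inside cno lay within 22223 bp of the upstream start. The second start, at 5198298, had a weak call 151 bp away (signal 36.3, rank 18452). The last 25229 bp of the gene, past the most distant of these calls, held 0 pooled calls, with 1 call in the list of replicate 1 and 0 in that of replicate 3. The calls at the start and 9534 bp from it each overlapped a weaker call, and both calls of a pair lay on 1 call in each replicate, so the weaker ones are not separate evidence.

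baz carried its strong calls in the middle of the gene and not at its start. The gene spans 40723 bp on X (17160006 to 17200728, plus strand), with 4 transcripts from 1 start, and it held 21 calls, of which 2 were kept. The stronger (17178552 to 17178799, 248 bp wide) lay 18720 bp from the start with a pooled signal of 376 (rank 205). It had 187 in replicate 1 (rank 171) and 195 in replicate 3 (rank 246). The other (17175749 to 17176172) lay 15955 bp from the start at a signal of 163 (rank 1741), with 74.7 in replicate 1 (rank 1867) and 86.3 in replicate 3 (rank 1902). Both replicates thus ranked both calls among their 4402 strongest.

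Both kept baz calls fell on an exon that 2 of the 4 transcripts use as 5′ untranslated sequence and that the other 2 splice out as part of a first intron of 27800 bp. Of pooled exon calls 5.19% were kept. The start with the nearest distance to either summit was that of the non-coding gene lncRNA:CR44026, which lies inside baz, at 4516 and 7281 bp. The call at the baz start, 20 bp upstream, had a signal of 77.1 (rank 6073) and was not kept. Its rank differed between replicates, at 15006 in replicate 1 (signal 23.2) and 5099 in replicate 3 (signal 47.9). The other 18 calls of baz had signals of 28.6 to 59.4 at rank 8775 and weaker. The last 12894 bp of the gene held 0 pooled calls and 1 call in each replicate list.

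alpha-Cat and p120ctn had kept calls at their starts, and many weak calls along their introns. alpha-Cat spans 19455 bp on 3L (23318646 to 23338100, minus strand), and both its kept calls lay upstream of its single start. Their summits were 47 and 247 bp from it, with pooled signals of 157 (rank 1882) and 102 (rank 4066). The calls overlap, and both matched the same call in each replicate, with a signal of 67.9 in replicate 1 (rank 2286) and 88.3 in replicate 3 (rank 1816). They therefore count as 1 bound stretch. The other 15 calls had signals of 29.7 to 64.9, all below the kept range.

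p120ctn spans 14205 bp on 2R (4595288 to 4609492, plus strand). Its start call, with the summit 16 bp upstream, had a pooled signal of 164 (rank 1721), and 59.8 in replicate 1 (rank 2939) and 102 in replicate 3 (rank 1344). Both replicates held it among their 4402 strongest. Its second kept call lay 1543 bp downstream in the first intron at a signal of 99.0 (rank 4240), the closest to the threshold of the 10. It had 46.1 in replicate 1 (rank 4632) and 50.8 in replicate 3 (rank 4664), just past rank 4402 in each. The strongest p120ctn call that was not kept, 10948 bp from the start, was ranked 5388 in the pool, and its replicates differed, at rank 3835 in replicate 1 and 12860 in replicate 3.

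The second kept call of p120ctn lay on annotated transposable element sequence (the elements 1360 and INE-1 overlap there). It was 1 of 17 kept peaks on such sequence, out of 903 calls there, of which 1.88% were kept. Both genes lie in pericentric sequence, taken as the part of 3L beyond 23 Mb and of 2R before 5.6 Mb. Transposable elements cover 41.4% of alpha-Cat and 36.4% of p120ctn, and from 0 to 12.6% of the other members. Of the 17 calls at alpha-Cat 7 had summits in such elements (1360, INE-1 and gypsy4), and of the 15 at p120ctn 6 did (1360, INE-1, Cr1a, Doc and 3S18). At the other 4 genes 0 of 44 calls did. Whether reads can be placed uniquely on these elements was not tested.

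Among the 6 genes the density of calls was highest at the pericentric pair, whereas over all pericentric sequence it was lower than elsewhere. All pericentric sequence had 1.70 calls and 0.0707 kept calls per 10 kb, against 2.26 and 0.367 over the rest of the large arms. Per 10 kb, p120ctn had 9.26 calls and alpha-Cat 7.92, followed by shg with 6.29, baz with 4.92, arm with 3.56 and cno with 2.63. The median over the 2438 protein-coding genes of at least this length was 2.36, and over the 81 such genes in pericentric sequence it was 4.47. Of those 81 genes 92.6% had fewer calls per 10 kb than p120ctn and 80.2% fewer than alpha-Cat. The 2 pericentric genes together had 8.50 calls and 1.06 kept calls per 10 kb, and the other 4 genes had 3.89 and 0.531. The share of calls that were kept was 12.5% in the pericentric pair and 13.6% in the other 4 genes, against 4.16% over all pericentric sequence and 16.3% over the rest of the large arms. The figures of the pair count both kept alpha-Cat calls, although they form 1 bound stretch. Overlapping calls were not joined in the other figures either. A kept call was present at 46.9% of the 81 pericentric genes, and a kept call within 500 bp of a start at 34.6% of them.

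**Figure D2:**
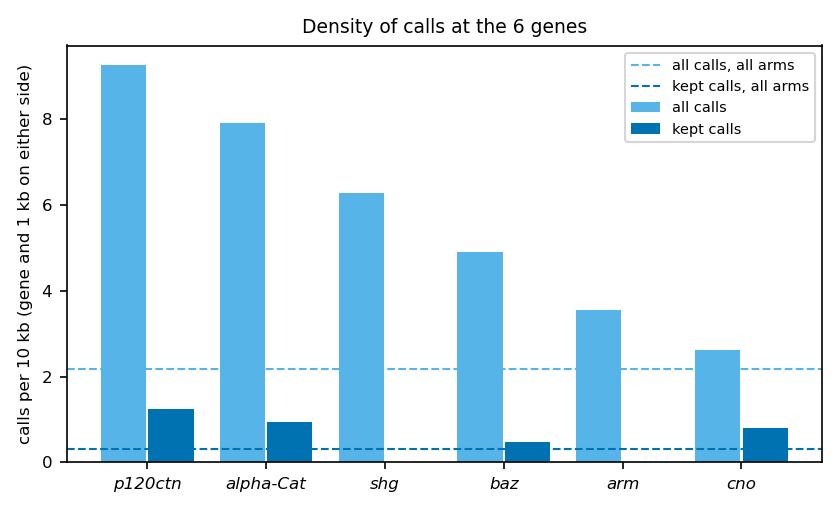
Pooled calls per 10 kb over each gene with 1 kb on either side, for all calls (light bars) and kept calls (dark bars), with the densities over all chromosome arms as dashed lines (2.18 and 0.320). The highest density of all calls is at p120ctn (9.26) and the lowest at cno (2.63), which has 0.809 kept calls per 10 kb.

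shg and arm, the genes of the cadherin and of beta-catenin, had no call in the kept range. The median signal of all pooled calls was 41.8. shg spans 7544 bp on 2R (21049654 to 21057197, minus strand) and had 6 calls. The strongest lay 181 bp upstream of its start with a pooled signal of 86.8 (rank 5104), against 96.4 for the weakest kept peak. It had 41.9 in replicate 1 (rank 5481) and 43.9 in replicate 3 (rank 5772), so both replicates placed it outside their 4402 strongest. Its window holds a full TATCGATA, as do 2.90% of all pooled call windows and 7.16% of those of all kept peaks. Of the 76 member windows 2 held it. An overlapping call (signal 52.7, rank 10530) lay 206 bp from the start of the divergent gene cpa, which codes for a subunit of the actin capping protein. The gap between these starts therefore carried 1 run of signal that cannot be given to either gene alone.

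arm spans 9246 bp on X (1891401 to 1900646, minus strand), with 6 transcripts from 4 starts. It had 4 calls, the strongest of them 110 bp downstream of the most upstream start, at a signal of 41.0 (rank 15415). It had 20.6 in replicate 1 (rank 18578) and 21.3 in replicate 3 (rank 16707). The strongest arm calls of the replicate lists were other calls, at rank 15735 in replicate 1 (signal 22.6) and 11320 in replicate 3 (signal 27.7). The other 3 pooled calls had signals of 27.7 to 30.9, near the lowest of the pooled list (25.8), and 2 of them matched no call in either replicate. Since the depth of the libraries is unknown, a signal below the list cannot be told from no binding.

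By place, the 6 genes had most of their calls in introns. A call counted as promoter within 500 bp of any annotated start, else as exon, intron or outside genes. Introns held 48 of the 76 calls (63.2%), exons 12 (15.8%), promoters 11 (14.5%) and sequence outside genes 5 (6.58%). Of all pooled calls 39.7% were in introns, 9.89% in exons, 30.6% at promoters and 19.8% outside genes. These shares are not like for like. The member calls were taken in or within 1000 bp of long genes, which by itself raises the intron share and lowers the share outside genes. Of the 10 kept calls 4 were at promoters, 4 in introns and 2 in exons. Of all kept peaks 59.8% were at promoters, 25.1% in introns and 3.50% in exons. Both kept exon calls of the members were those of baz. At promoters 4 of the 11 calls were kept, against 28.7% of all pooled promoter calls. The genes with a kept call within 500 bp of a start were cno, alpha-Cat and p120ctn, 3 of 6, against 31.6% of the 2438 genes of at least this length. At least 4 kept calls, the number at cno, were present at 6.11% of those genes, whose median was 1 kept call. Those genes were not matched to the length of cno (47453 bp), and a longer gene has more room for calls.

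All 10 kept calls matched a call in both replicates by at least 50% of the shorter call. Of them 7 matched one among the 4402 strongest of both, the exceptions being the start call of cno, its call 9534 bp downstream and the intron call of p120ctn. The alpha-Cat calls among the 7 share their match in each replicate. Kept calls were thresholded on agreement between these replicates, and the pool holds the same reads, so such matches follow largely from how the list was made. The same shares over all kept peaks or all pooled calls were not computed. For 8 of the 10 the replicate summits lay within 60 bp of the pooled one. Of all 76 calls 45 matched in both replicates, 27 in 1 and 4 in neither. The Spearman correlation of the ranks over the 45 was 0.704, given as a description, since overlapping calls can share a match and the replicates share a control. The 76 calls form 62 runs of overlapping calls. Of the 66 calls not kept 1 matched top calls of both replicates, a baz call that overlaps the kept call at 15955 bp, whose replicate match it shares.

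**Figure D3:**
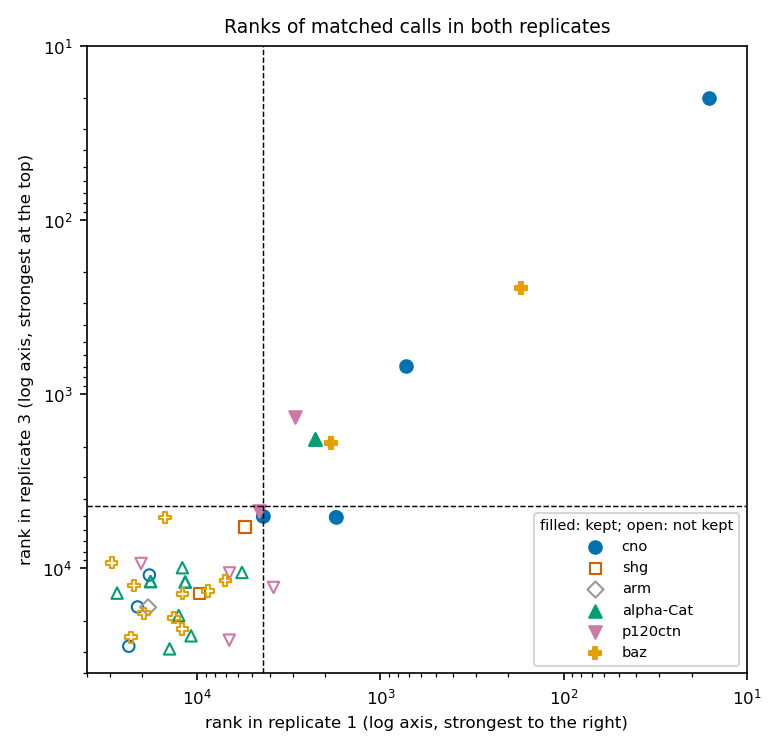
Rank in replicate 3 against rank in replicate 1 (log axes, strongest at the upper right) for the 45 calls matched in both, with dashed lines at rank 4402; calls that share their matches coincide. The cno call at ranks 16 and 20 and the baz call at ranks 171 and 246 stand at the upper right, and the open points of calls not kept lie mostly beyond both lines.

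Around the authors' threshold the genes fell close together. Just inside it were the cno call 9534 bp from the start (rank 4063), the upstream alpha-Cat call (rank 4066) and the intron call of p120ctn (rank 4240). Just outside were the partner of the cno call (rank 4994, signal 88.2), the shg start call (rank 5104), the p120ctn call 10948 bp from the start (rank 5388, signal 83.4) and the baz start call (rank 6073). The −log10 q-value of 9 of the 10 kept calls was at the highest value of the pooled list (3.92), and that of the p120ctn intron call was 3.45. It was therefore not used to order them.

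The calls 1 rank above and 1 rank below the strongest call of each member were taken as the most alike in strength, and are named by the gene they lie in or the start they lie nearest to. For cno these were an intron call at rank 16 in Lk6, a protein kinase gene (signal 816, rank 23 in replicate 1 and 13 in replicate 3), and a promoter call at rank 18 at CG30156 (signal 789). For baz they were a promoter call at Ire1, whose product is a sensor of endoplasmic reticulum stress (rank 204), and an intron call in chm, which codes for a histone acetyltransferase (rank 206). The neighbours of alpha-Cat were promoter calls at CG3556, with the summit inside lncRNA:CR32773, and at CG32137. Those of p120ctn were an exon call in l(3)mbn and a promoter call at lncRNA:CR44366. Those of shg lay at C3G and in hebe, and those of arm at lncRNA:CR46533 and in cic. Likeness here is rank over the pool of 2 replicates and nothing more.

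Genes of related structures were compared as 5 lists, of which 81 different genes matched the annotation. At least 1 call within 1000 bp was present at 12 of 15 cadherins other than shg and at all matched genes of the other lists. It was present at 83.3% of the 2438 protein-coding genes of at least 7544 bp. A kept call within 1000 bp was present at 47 of the 81 (58.0%), against 51.8% of protein-coding genes of at least 7544 bp, although these lists also hold shorter genes. No gene of the 81 had a stronger call than cno. Among linkers and regulators of adherens junctions 14 of 20 had a kept call. The strongest were at pyd, the ZO-1 homologue gene (rank 322, at a tRNA start), smash, which codes for a Canoe-binding junction protein (rank 366, nearest to the start of lncRNA:CR44156), and sdk, a gene of tricellular junctions (rank 562). Among genes of apical-basal polarity 10 of 14 had one, led by aPKC, the kinase partner of Bazooka (rank 846, nearest to the start of ckn), Moe, which codes for Moesin (rank 1354), and scrib (rank 1557).

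Cadherins other than shg had fewer, 5 of 15. Of the 15, 0 had a kept call within 500 bp of a start of their own. That share was 31.6% over the 2438 protein-coding genes of at least 7544 bp. Cad86C (rank 602, nearest to the start of CG42394), ds (rank 877) and Cals (rank 1246) were the strongest of these cadherins. CadN2, Cad88C and Cad89D, named after their values were seen, had no call at all. shg itself, which is not in this list, had no kept call either, and neither did 10 of the 15. Of septate junction genes 12 of 21 had a kept call, led by Lac (rank 640), bark (rank 733) and nrv2 (rank 1020). Of integrin adhesion genes 6 of 11 had one, led by Pax, the Paxillin gene (rank 228), if (rank 739, nearest to the start of goe) and mew (rank 1058, nearest to the start of CG32639). The counts of genes with a kept call within 1000 bp are read beside the 51.8% and 31.4% above. No difference between lists was tested.

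**Figure D4:**
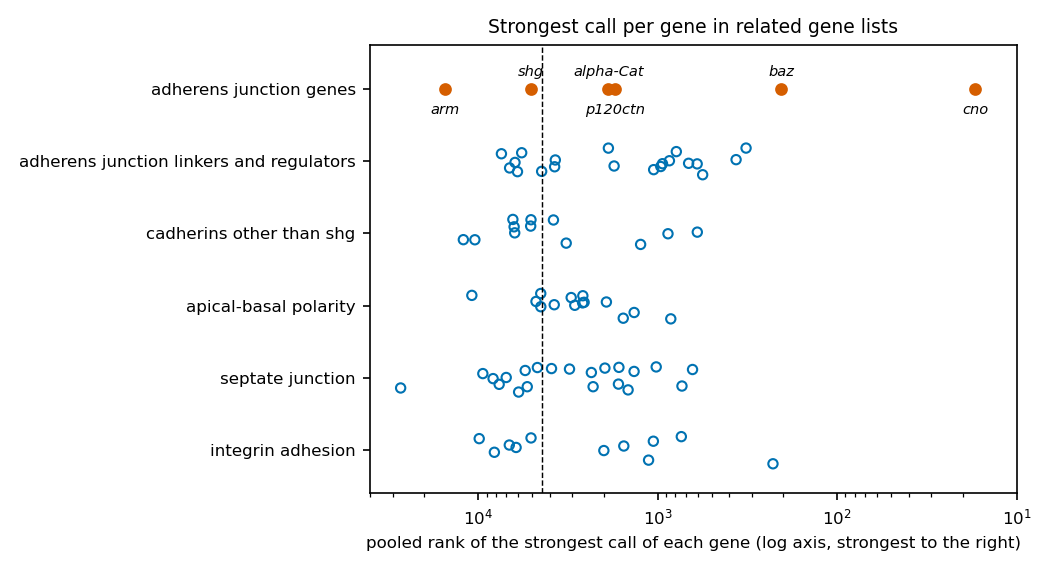
Pooled rank of the strongest call within 1000 bp of each gene (log axis, strongest to the right), for the 6 adherens junction genes (filled) and the genes of 5 related lists (open), with a dashed line at rank 4402. The members spread from rank 15415 (arm) to rank 17 (cno), and the strongest call of the related lists is at rank 228 (Pax).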

How the data were processed

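The files are narrowPeak lists on dm6. According to the deposited descriptions of the files, calls were made with a control, once per replicate and once on pooled alignments, and an IDR threshold was then applied. No source used here names the aligner or the caller. The signal of each call and its −log10 q-value are as deposited by the authors. Signal scales differ between lists, so calls are compared between lists by rank, and the signals printed beside the ranks are each list's own. Depth is unknown, so no interval or floor is given.

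Genes came from Ensembl release 115 (dm6 coordinates) and sequence from the Release 6 assembly. Coordinates are 1-based, with the summit as start plus peak offset. A replicate call matched by at least 50% of the shorter call, and the strongest match was taken. Of 82 related genes listed, 81 different ones matched by symbol or RefSeq synonym. Named genes are the members, the 3 strongest per related list by kept call, and the rank neighbours. The members, lists and boundaries were chosen with earlier results of these data known, and no test was made. Counting and matching were tested on simulated data. Python 3.11.15 and pandas 2.3.3 were used. The dm3 lists were not used here.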

Additional observations from a re-analysis of the deposited data

How the results depend on the processing

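Of 30 comparisons of counts with an alternative, 25 stayed within 1.5 times. The comparisons that used the middle of the call in place of the summit were nearly fixed in advance. The calls of 424 bp, 74 of the 76, have their summit in the middle. With summits inside the gene span alone, kept calls numbered 6, kept promoter calls 0 and kept calls among the strongest of both replicates 4, against 10, 4 and 7, because the start calls of cno, alpha-Cat and p120ctn lie upstream of the annotated starts, and alpha-Cat then had no kept call (strongest rank 7755). With the kept list limited to rank 2201 there were 6 kept calls, 2 of them at promoters, still at 4 genes, by construction of a stricter limit. Taking the 4402 strongest calls of 1 replicate gave 7 to 9 kept calls, 3 promoter calls and 4 genes. A window of 5000 bp gave 12 kept calls at 5 genes, since it takes in a call at mRpL54, 3546 bp from shg (rank 2621), and a call 1161 bp from alpha-Cat (rank 2518). The strongest shg call would then rank 2621, and 22442 inside the gene span. Of 30 comparisons of ranks, 20 stayed within the standard deviation of the replicate ranks. Taking 1 call per run of overlapping calls could not change a strongest rank. The ranks in 1 replicate are those that the standard deviation was computed from. The count of 20 therefore cannot measure how robust the ranks are. No paired analysis was possible because the samples form 1 group. With 2 replicates, unknown depth and an unanalysed control, the lists cannot tell weak binding from none.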
